A study of Homo sapiens with 12 samples.

Results

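HEK293 Flp-In cells given an siRNA against TAF5 and rescued with a full-length TAF5 transgene (FL) were compared with cells that received a non-targeting siRNA and kept their endogenous TAF5 (siNT). The comparison took 6 of the 12 libraries of the series, 3 in each group, and the 19424 of 32010 genes that passed a filter on low counts. HEK293 is a human embryonic kidney cell line, and Flp-In cells hold a defined landing site into which a transgene is recombined. FL cells were transfected with 1 siRNA against TAF5 and, 24 h later, given doxycycline for 48 h to induce an siRNA-resistant, full-length TAF5 transgene. The other 6 libraries came from cells with the same siRNA and a transgene lacking exon 8 (ΔE8), and from cells with that siRNA alone (siTAF5). The sample labels name siRNA and doxycycline for all 4 groups, while the protocol describes doxycycline for the rescued cells. The labels do not say in which Flp-In line the siNT and siTAF5 cells were grown, so FL and siNT cells differed in siRNA, transgene, TAF5 level and possibly line or doxycycline, and these cannot be told apart.

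TAF5 is a scaffold subunit of TFIID, the complex of the TATA-binding protein and its associated factors that recognises core promoters and helps to load RNA polymerase II. TFIID takes part in the transcription of most genes read by that polymerase, and TAF5 helps to hold its histone-fold subunits together. A related protein, TAF5L, has the corresponding place in the coactivator SAGA.

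Library totals ran from 42.6 to 62.5 M estimated reads in FL cells and from 54.8 to 61.8 M in siNT cells. Levels are given as CPM, a gene's reads in each 1 M of its library after scaling, and are not compared between genes, since CPM does not correct for length. Differences are log2 FL minus siNT with their SE unless another pair is named. They come from edgeR's quasi-likelihood test, and a gene was called higher or lower at a Benjamini-Hochberg adjusted p under 0.05 over the 19424 genes. The labels do not call the replicates separate cultures, and a p-value here speaks only for the spread among these libraries, which may be technical. On the first principal component, which held 58.1% of the variance of all 12 libraries, FL libraries lay between -8.79 and -4.27 and siNT libraries between 22.02 and 24.5. There siTAF5 libraries lay between -0.86 and 1.53 and ΔE8 libraries between -18.73 and -16.8, so FL lay farther from siNT than siTAF5 did. Marker levels of cell types are reads in each 1 M of the library total, without the scaling. Markers of HEK293 cells summed to 1930 to 1970 CPM in FL and 1880 to 1950 CPM in siNT libraries. VIM alone took 1160 to 1190 CPM in FL and 1060 to 1110 CPM in siNT libraries. Of the 10 markers 5 were called higher and 3 lower, so the sum hides differences among them. SALL4 was near the floor, at most 0.176 CPM in FL and 0.291 CPM in siNT libraries. Blood markers summed to 17.6 to 18.7 CPM in FL and 18.9 to 20.9 CPM in siNT libraries, mostly HBA1 and CD68, and hepatocyte markers to 0.388 to 0.464 CPM in FL and 0.148 to 0.194 CPM in siNT libraries, with TTR at 0.

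TAF5 transcripts (hg38 chr10:103367966-103389065, plus strand) were more abundant in the rescued cells than in cells with endogenous TAF5. TAF5 stood at 103, 106 and 107 CPM in FL libraries, against 39.2, 40.5 and 40.2 CPM in siNT libraries. The groups lay far apart, with little spread within either. The difference was 1.39 ± 0.03 on the log2 scale, or 2.63-fold (edgeR quasi-likelihood, adjusted p = 3.63e-16). Without rescue TAF5 averaged 6.72 ± 0.61 CPM in siTAF5 cells, against 40.0 ± 0.70 CPM in siNT cells (SD, n = 3 each), and ΔE8 cells held 88 ± 0.76 CPM. Reads from the transgene count as TAF5, so transgene and endogenous transcript are summed in these values.

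With full-length TAF5 in place, many genes differed from siNT cells, mostly by small amounts. Of 19424 genes, 10601 (54.6%) were called, with 5392 (27.8%) higher and 5209 (26.8%) lower in FL cells. The median size of a called difference was 0.29 on the log2 scale, or 1.22-fold. Called differences of at least 1.5-fold were found for 685 genes higher (3.53%) and 1308 genes lower (6.73%). At 2-fold or more, 267 genes were higher (1.37%) and 415 lower (2.14%). The 3 FL and 3 siNT libraries did not overlap at 59.7% of the tested genes, split into 30.2% higher and 29.4% lower. These shares are the background for the counts of gene groups that follow. In most groups up to 4 members were named for having the smallest adjusted p in this comparison. Their small p and the separation of their libraries thus follow from that choice. Calls were more frequent at high levels. In the highest of 4 equal bins of level 47.4% of genes were higher and 27.8% lower. The gene groups were not matched for level, so shares near these values say little about a group. The values are relative to the other genes of a library, so fewer cells that make a transcript and less of it per cell cannot be told apart.

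**Figure D1:**
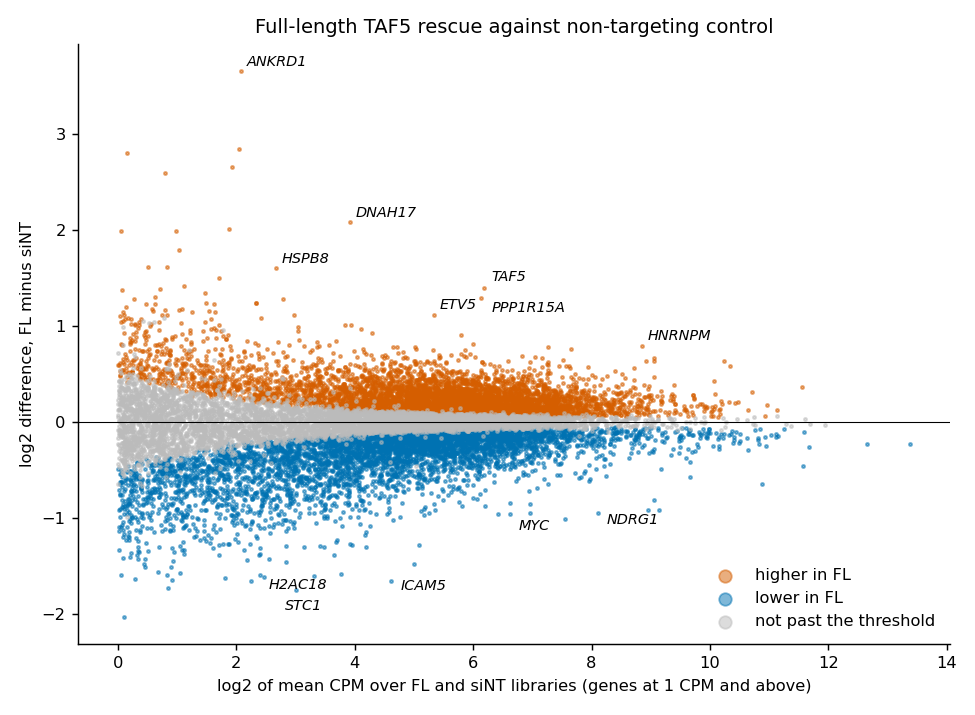
Each point is 1 tested gene at 1 CPM or more; the x axis is its mean level over FL and siNT libraries and the y axis the log2 difference FL minus siNT, in orange where higher, in blue where lower and in grey where the adjusted p was 0.05 or above. Most coloured points lie within 1 log2 unit of 0, and DNAH17 (2.08), HSPB8 (1.60) and TAF5 (1.39) stand above the cloud, with ICAM5 (-1.65) below it.

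The genes most raised in FL cells were taken as the 12 largest called differences at a moderate level or above, with no overlap of FL and siNT libraries. The separation and the adjusted p under 0.05 of genes chosen by this rule, raised or lowered, thus follow from the choice. DNAH17, an axonemal dynein heavy chain (chr17:78423697-78577396), had 21.4, 23.7 and 27.2 CPM in FL libraries, against 6.11, 5.82 and 5.15 CPM in siNT libraries. Every FL library was well above every siNT library, and the difference was 2.08 ± 0.08 (edgeR quasi-likelihood, adjusted p = 5.64e-13). HSPB8, a small heat shock protein that works with BAG3 in clearing misfolded proteins (chr12:119171555-119224855), had 8.22, 9.06 and 10.4 CPM in FL libraries, against 3.33, 2.89 and 2.90 CPM in siNT libraries. Its lowest FL library was above its highest siNT library, with a difference of 1.60 ± 0.10 (edgeR quasi-likelihood, adjusted p = 1.56e-10). PPP1R15A, also known as GADD34, the stress-induced subunit that directs protein phosphatase 1 to eIF2α (chr19:48872421-48876058), had 99.4, 94.6 and 104 CPM in FL libraries, against 41.1, 40.2 and 40.1 CPM in siNT libraries. The siNT libraries lay close together and far under the FL libraries, with a difference of 1.29 ± 0.03 (edgeR quasi-likelihood, adjusted p = 3.93e-16). ETV5, an ETS transcription factor of the PEA3 group, averaged 55.4 ± 3.6 CPM in FL and 25.5 ± 0.75 CPM in siNT cells (SD, n = 3 each), a difference of 1.12 ± 0.05.

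The rest of the 12 were AP3B2, the neuronal form of an AP-3 adaptor subunit (1.28), the noncoding RNA LINC01963 (1.24), the unnamed gene ENSG00000288640 (1.24), the short-chain reductase gene DHRS2 (1.12), the zinc finger gene ZNF425 (1.08), the mitochondrial ribosomal protein gene MRPL1 (1.01), the noncoding RNA DLEU2 (1.00) and BSN, which encodes a presynaptic scaffold (0.98). In each of these the 3 FL libraries lay above the 3 siNT libraries, as the rule for naming them required. ANKRD1, an ankyrin repeat protein and a common readout of YAP, was too low for this rule and was reached through the list of YAP-TEAD targets. It had 6.97, 6.12 and 9.07 CPM in FL libraries, against 0.626, 0.694 and 0.440 CPM in siNT libraries. The groups lay far apart, with a difference of 3.65 ± 0.17 (edgeR quasi-likelihood, adjusted p = 3.41e-12). Of the 18 YAP-TEAD targets, ANKRD1 included, 4 were higher and 5 lower, with a median of -0.05, and TGFB2 (-0.80) and ARHGEF17 (-0.71) were among the lower ones.

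**Figure D2:**
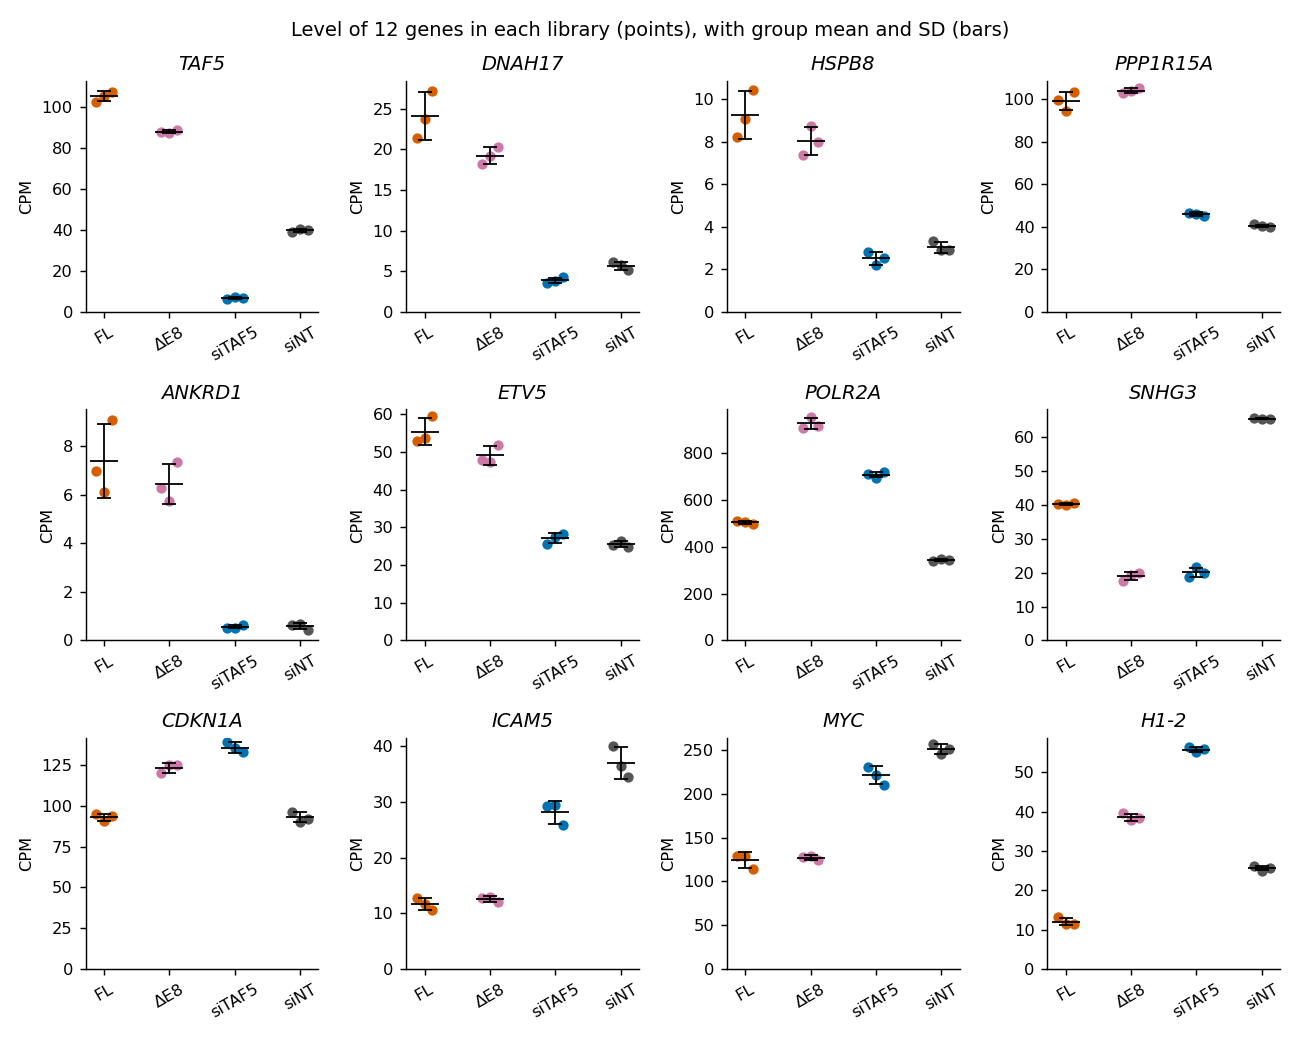
CPM (y axis) of 12 genes, 1 panel each, with points for libraries, and bars for the group mean and SD of 3 libraries; groups run FL, ΔE8, siTAF5, siNT from left to right. DNAH17, HSPB8, PPP1R15A, ANKRD1 and ETV5 are high in both rescued groups, ICAM5 and MYC are low in both, and CDKN1A averages 93 CPM in FL and 92.9 CPM in siNT cells.

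Of the 12 genes most lowered in FL cells, chosen by the same rule, STC1 had the largest difference. STC1, a secreted glycoprotein that acts on calcium and phosphate handling, had 4.59, 3.32 and 2.60 CPM in FL libraries, against 12.9, 12 and 11.4 CPM in siNT libraries. The FL libraries stayed under all siNT libraries, with a difference of -1.75 ± 0.12 (edgeR quasi-likelihood, adjusted p = 3.66e-10). ICAM5, a neuronal cell adhesion molecule (chr19:10289952-10296778), had 12.8, 11.6 and 10.7 CPM in FL libraries, against 40.0, 36.4 and 34.4 CPM in siNT libraries. No FL library came near the siNT range, and the difference was -1.65 ± 0.07 (edgeR quasi-likelihood, adjusted p = 6.48e-13). The cytokine gene IL32 averaged 2.58 ± 0.39 CPM in FL and 7.98 ± 0.38 CPM in siNT cells (SD, n = 3 each), a difference of -1.61. PCK1, the cytosolic enzyme that commits carbon to gluconeogenesis, averaged 2.16 ± 0.20 CPM in FL and 6.84 ± 0.49 CPM in siNT cells (SD, n = 3 each), a difference of -1.65. The others were VSTM2B (-1.61), the actin-associated SYNPO (-1.59), the histone genes H2AC18 (-1.59) and H4C14 (-1.48), the potassium channel KCNJ4 (-1.46), the zinc finger gene ZNF467 (-1.44), the antiviral tether BST2 (-1.43) and the BMP antagonist NOG (-1.39).

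Promoters are shown for 4 raised and 4 lowered genes, because TFIID recognises the core promoter and its TATA-binding subunit binds the TATA box. On each side they are the first of the 12 genes, by size of difference, for which a promoter could be shown. STC1, the most lowered gene, was left out by a separate choice outside this rule. The counts for the printed promoters therefore describe only the genes shown. Each promoter is the 250 bases before the RefSeq start on GRCh38.p14, 5′ to 3′ on the strand of the gene. RefSeq starts can differ from the deposited gene coordinates. By the latter the HSPB8 window lies inside the gene and the IL32 window partly inside, so other starts of these genes were not searched. Those of the raised genes are HSPB8 at chr12:119178681-119178930, PPP1R15A at chr19:48872171-48872420, AP3B2 at chr15:82709876-82710125 and DHRS2 at chr14:23629865-23630114. Those of the lowered genes are ICAM5 at chr19:10289702-10289951, IL32 at chr16:3065153-3065402, VSTM2B at chr19:29525168-29525417 and SYNPO at chr5:150600826-150601075. AP3B2 is on the minus strand and the others on the plus strand.
HSPB8: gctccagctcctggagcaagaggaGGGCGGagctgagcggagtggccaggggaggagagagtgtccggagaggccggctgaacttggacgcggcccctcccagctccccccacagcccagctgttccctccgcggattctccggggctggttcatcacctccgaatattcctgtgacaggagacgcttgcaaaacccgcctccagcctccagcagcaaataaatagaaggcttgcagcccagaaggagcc
PPP1R15A: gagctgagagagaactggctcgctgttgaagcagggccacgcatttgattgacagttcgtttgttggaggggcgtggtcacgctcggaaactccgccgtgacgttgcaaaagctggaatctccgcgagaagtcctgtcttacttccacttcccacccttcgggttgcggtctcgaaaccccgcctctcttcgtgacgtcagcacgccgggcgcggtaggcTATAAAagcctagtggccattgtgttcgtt
AP3B2: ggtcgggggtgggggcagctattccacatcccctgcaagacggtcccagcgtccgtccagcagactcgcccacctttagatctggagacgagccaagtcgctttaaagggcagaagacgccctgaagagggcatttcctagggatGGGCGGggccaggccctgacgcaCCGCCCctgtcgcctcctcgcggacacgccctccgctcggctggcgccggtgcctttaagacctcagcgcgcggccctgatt
DHRS2: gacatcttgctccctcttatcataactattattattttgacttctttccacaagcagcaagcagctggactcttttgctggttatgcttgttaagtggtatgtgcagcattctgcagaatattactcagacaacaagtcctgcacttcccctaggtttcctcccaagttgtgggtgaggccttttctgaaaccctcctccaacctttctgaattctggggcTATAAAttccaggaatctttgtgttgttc
ICAM5: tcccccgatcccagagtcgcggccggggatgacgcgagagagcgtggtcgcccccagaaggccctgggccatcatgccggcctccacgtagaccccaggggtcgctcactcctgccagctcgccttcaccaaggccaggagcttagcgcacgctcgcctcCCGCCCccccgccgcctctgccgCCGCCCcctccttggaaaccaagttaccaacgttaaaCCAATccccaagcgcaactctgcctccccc
IL32: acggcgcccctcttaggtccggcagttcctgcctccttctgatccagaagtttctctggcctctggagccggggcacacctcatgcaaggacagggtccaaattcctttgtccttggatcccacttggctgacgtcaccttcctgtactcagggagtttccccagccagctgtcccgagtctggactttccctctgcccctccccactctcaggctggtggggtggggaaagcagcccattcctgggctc
VSTM2B: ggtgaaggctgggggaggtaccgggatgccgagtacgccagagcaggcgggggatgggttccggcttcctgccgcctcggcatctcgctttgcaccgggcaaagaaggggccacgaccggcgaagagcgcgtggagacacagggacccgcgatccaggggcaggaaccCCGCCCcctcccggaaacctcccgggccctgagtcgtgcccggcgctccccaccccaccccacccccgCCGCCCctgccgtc
SYNPO: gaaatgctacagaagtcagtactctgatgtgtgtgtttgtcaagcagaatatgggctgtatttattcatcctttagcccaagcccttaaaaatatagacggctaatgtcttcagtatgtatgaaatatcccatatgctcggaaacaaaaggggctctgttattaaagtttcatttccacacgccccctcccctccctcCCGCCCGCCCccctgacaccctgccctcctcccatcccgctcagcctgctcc
Capitals mark matches to the TATA box core TATAAA, searched on the strand of the gene, and to the CCAAT box, the GC box (GGGCGG) and the E-box (CACGTG), searched on both strands. Of the 4 raised genes 2 held TATAAA, which begins at -30 in PPP1R15A and at -29 in DHRS2, counted from the start. The raised genes HSPB8 and AP3B2 held GC boxes and no TATAAA. None of the 4 lowered genes held TATAAA: ICAM5, VSTM2B and SYNPO held GC boxes, ICAM5 also a CCAAT box at -30, and IL32 held no match in this window. The GC boxes of SYNPO overlap each other. Over larger sets most promoters on both sides lacked it. TATAAA was found in 7.17% of all 27305 promoters of the reference and in 3.83% of the 12589 that belonged to tested genes. Among genes higher by at least 1.5-fold 33 of 344 promoters held it (9.59%), and among genes lower by at least 1.5-fold 39 of 810 (4.81%). Over all called genes, whatever the fold, the shares were 3.42% of 4123 higher and 3.73% of 3802 lower genes. A match describes the letters, and no binding was measured. DNAH17 and PCK1 had no entry.

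Genes of the transcription machinery that TAF5 serves were more often higher than lower in FL cells. Of the other 15 TFIID genes, 8 were higher (53.3%) and 2 lower (13.3%), against 27.8% and 26.8% of all tested genes. In the highest bin of level the shares were 47.4% and 27.8%, so the share of higher TFIID genes was near that of well-expressed genes. The TFIID median was 0.12, against 0.01 over all tested genes and 0.06 in that bin. TAF13 (0.47), TAF3 (0.45) and TAF9B (0.41), which encode histone-fold subunits, were higher. TAF3 had 45.3, 40.9 and 43 CPM in FL libraries, against 31.6, 31.9 and 31.3 CPM in siNT libraries, and no libraries overlapped. TAF12 (0.30), TAF2 (0.23), TAF11 (0.19), TAF9 (0.15) and TAF7 (0.12) were also higher. For TAF7, edgeR's adjusted p was 0.00765, and 0.0618 without FL replicate 3 or 0.0521 without siNT replicate 1. TAF4B, the paralogue of TAF4, was lower, with 32.1, 31.9 and 30.9 CPM in FL libraries, against 40.6, 40.2 and 39.2 CPM in siNT libraries (-0.34 ± 0.04). TAF8 was slightly lower, averaging 48.2 ± 0.53 CPM in FL and 52.9 ± 2.1 CPM in siNT cells (SD, n = 3 each). TBP (0.05), TAF1 (-0.01), TAF4 (0.03) and TAF6 (0.02) did not pass the test. TAF10 (0.11) did not pass either, except without siNT replicate 1, where edgeR's adjusted p was 0.00194.

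POLR2A, the catalytic subunit of RNA polymerase II, had 509.6, 505 and 498 CPM in FL libraries, against 338, 348 and 341 CPM in siNT libraries. The FL libraries lay close together and all above the siNT libraries, with a difference of 0.56 ± 0.02 (edgeR quasi-likelihood, adjusted p = 9.52e-13). POLR2A averaged 926 ± 24.9 CPM in ΔE8 and 707 ± 11.6 CPM in siTAF5 cells (SD, n = 3 each), so FL was the lowest of the 3 groups with the TAF5 siRNA. Of 12 RNA polymerase II genes 10 were higher and none lower, with a median of 0.22. The small subunits POLR2L (0.39) and POLR2K (0.34), shared with the other nuclear polymerases, and the core subunit POLR2C (0.37) were among the higher genes, and POLR2H (-0.05) and POLR2I (0.03) did not pass. Under upper-quartile scaling POLR2H was called lower (-0.08). Among 17 general factors 9 were higher and 2 lower, with GTF2H1 of TFIIH at 0.41 and GTF2E2 of TFIIE at -0.32.

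The coactivators were mostly higher as well. Of 18 SAGA genes 12 were higher and none lower (median 0.14), counts that became 10 and 3 under upper-quartile scaling, with 1 lower without FL replicate 1 or siNT replicate 1. USP22 (0.05) lost its call there and whichever single FL or siNT library was left out, then at edgeR adjusted p-values from 0.0523 to 0.258. KAT2A, the SAGA acetyltransferase, averaged 108 ± 1.3 CPM in FL and 88.2 ± 2.1 CPM in siNT cells (SD, n = 3 each), and TAF5L averaged 87.2 ± 2.4 CPM in FL and 76.5 ± 0.79 CPM in siNT cells. SF3B3, which SAGA shares with the spliceosome, was higher by 0.29. Of 32 Mediator genes, which bridge activators and the polymerase, 21 were higher and 3 lower (median 0.19), and 1 was lower without FL replicate 1. MED20 (0.55) and MED29 (0.50) were higher, MED29 with 144 ± 2.5 CPM in FL and 102 ± 0.98 CPM in siNT cells. Of 20 RNA polymerase III genes 11 were higher and 3 lower (median 0.10).

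**Figure D3:**
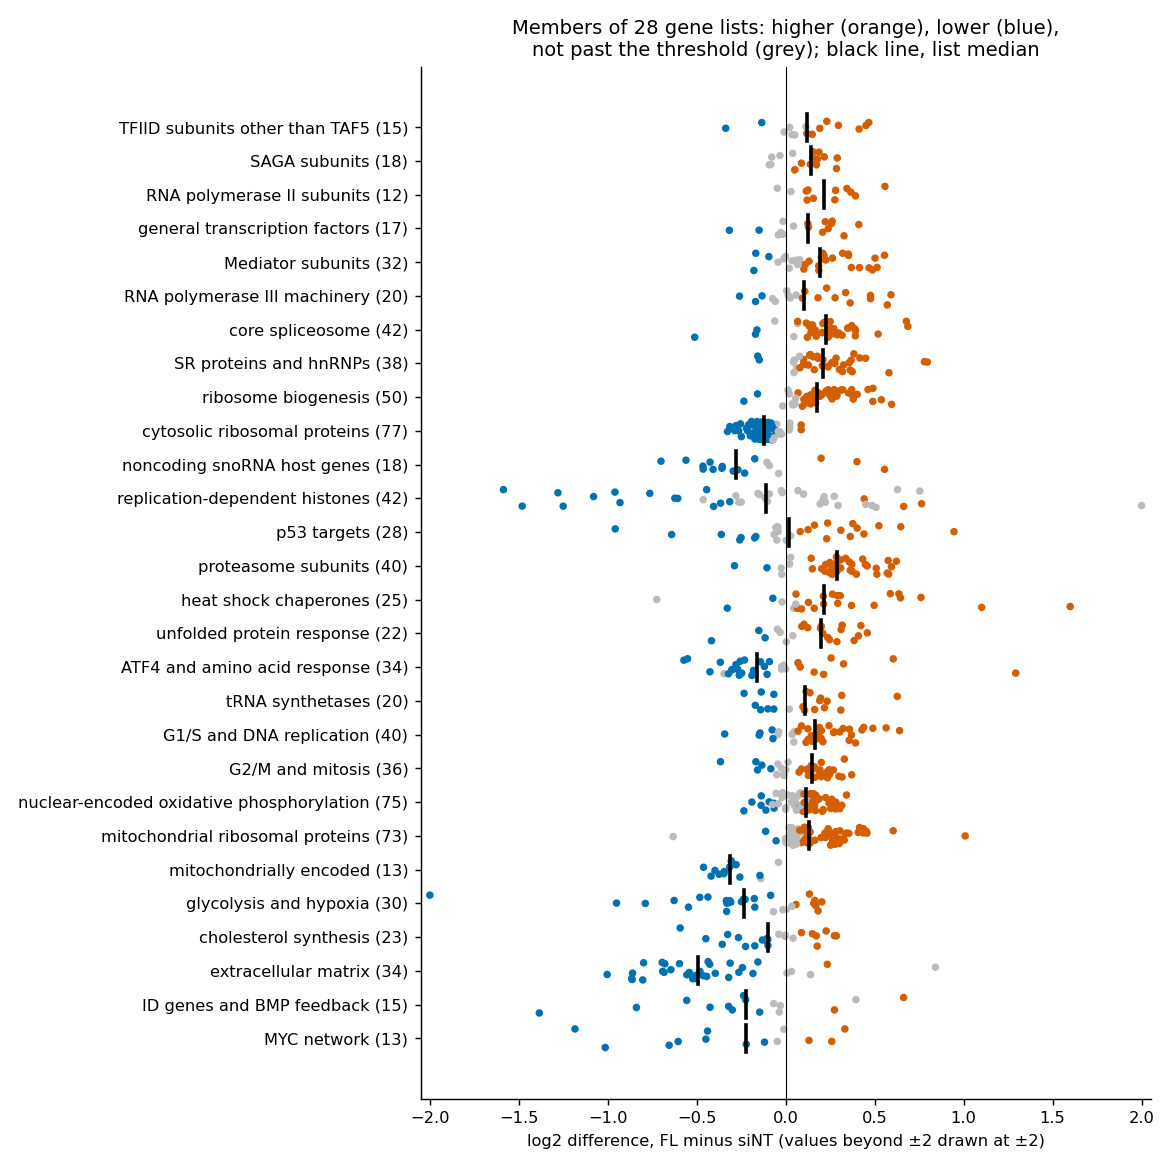
Log2 differences FL minus siNT (x axis) of the tested members of 28 gene lists (rows), orange where higher, blue where lower, grey where not past the threshold, with a bar at each list's median; differences beyond 2 are drawn at the edge. The proteasome list (median 0.29) lies farthest right and the extracellular matrix list (median -0.50) farthest left.

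Genes of RNA processing and of ribosome assembly were mostly higher in FL cells, while most ribosomal protein genes were lower. Of 42 core spliceosome genes 36 were higher and 3 lower (median 0.23), against 27.8% and 26.8% of all tested genes. SF3B4, a subunit of the U2 particle, averaged 140.0 ± 3.5 CPM in FL and 87 ± 1.0 CPM in siNT cells, and BCAS2, of the Prp19 complex, averaged 71.9 ± 4.1 CPM in FL and 44.9 ± 1.8 CPM in siNT cells (SD, n = 3 each). SNRPA1, another U2 protein, was lower, with 106, 102 and 106 CPM in FL libraries, against 149, 148 and 150.3 CPM in siNT libraries (-0.51 ± 0.03). Of 38 genes for SR proteins and hnRNPs, which set splice choices and package transcripts, 31 were higher and 2 lower (median 0.21). HNRNPM had 587, 573 and 605 CPM in FL libraries, against 333, 349 and 336 CPM in siNT libraries. The groups lay far apart, with a difference of 0.80 ± 0.02 (edgeR quasi-likelihood, adjusted p = 2.13e-14). HNRNPU (0.58) and SRSF6 (0.78) were also higher.

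Of 50 ribosome biogenesis genes 41 were higher and 2 lower (median 0.18), the higher ones including UTP20 (0.54), NOP2 (0.49) and RRS1 (0.49). Of 77 cytosolic ribosomal protein genes 2 were higher and 63 lower, with a median of -0.12, and 1 was higher without FL replicate 1, siNT replicate 2 or siNT replicate 3. RPS25 had 361, 369.8 and 356 CPM in FL libraries, against 461, 449 and 454 CPM in siNT libraries (-0.33 ± 0.02), and RPL13A averaged 1438 ± 52.2 CPM in FL and 1754 ± 27.5 CPM in siNT cells (SD, n = 3 each). Many of these genes have pseudogene copies that can share reads, so single values are uncertain. Together they took 7.36 to 7.60% of reads in FL libraries, against 8.11 to 8.44% in siNT libraries, and these ranges did not overlap. The share was 7.15 to 7.30% in siTAF5 and 6.69 to 6.92% in ΔE8 libraries, so FL was the highest of the groups with the TAF5 siRNA.

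Noncoding hosts of snoRNAs, which carry small nucleolar RNAs in their introns, were lower in FL cells at 12 of 18 genes and higher at 3 (median -0.28). SNHG3 had 40.4, 39.9 and 40.6 CPM in FL libraries, against 65.8, 65.5 and 65.3 CPM in siNT libraries. Replicates lay close within both groups, and the difference was -0.70 ± 0.04 (edgeR quasi-likelihood, adjusted p = 5.22e-11). SNHG3 averaged 19 ± 1.2 CPM in ΔE8 and 20.1 ± 1.4 CPM in siTAF5 cells (SD, n = 3 each), so its level was 61.5% of the siNT level in FL cells and 30.6% in siTAF5 cells. SNHG16 (-0.47) and ZFAS1 (-0.46) were lower too. Of 7 nuclear-retained noncoding RNAs 4 were higher and 1 lower (median 0.14). The counts became 2 higher and 2 lower without FL replicate 2 or siNT replicate 1, and under upper-quartile scaling. Their summed level was lower in FL libraries, at 2024 to 2146 CPM, against 2667 to 3015 CPM in siNT libraries.

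Polyadenylated transcripts of replication-dependent histone genes were lower in FL than in siNT cells at 14 of 42 tested genes. In siTAF5 cells no gene of the list was lower. Of 63 genes in the list 59 were found and 42 passed the filter. Some of these could pass through the siTAF5 libraries in which they were high, which favours higher calls in siTAF5 cells. In FL against siNT 14 were lower (33.3%), 3 higher (7.14%) and 25 neither (median -0.11). Among all tested genes 26.8% were lower and 27.8% higher, so the share of lower histone genes was near that of all genes. In siTAF5 against siNT, which uses the same siNT libraries and in which 49.7% of all tested genes were called (24.7% higher, 25.0% lower), 28 were higher and none lower (median 0.80). Summed over the tested members, the level was 176 to 184 CPM in FL, 428 to 439.9 CPM in ΔE8, 575 to 582 CPM in siTAF5 and 307 to 320.3 CPM in siNT libraries, with no overlap between groups.

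The linker histone gene H1-2 had 13.1, 11.5 and 11.5 CPM in FL libraries, against 26.2, 25 and 25.7 CPM in siNT libraries. The FL libraries lay well under the siNT libraries, with a difference of -1.08 ± 0.05 (edgeR quasi-likelihood, adjusted p = 1.59e-12). H1-2 averaged 38.6 ± 0.86 CPM in ΔE8 and 55.8 ± 0.68 CPM in siTAF5 cells (SD, n = 3 each). H2BC12 had 48.9, 45.1 and 50.9 CPM in FL libraries, against 67.5, 63.3 and 61.5 CPM in siNT libraries (-0.41 ± 0.04). H2BC21 was lower as well (-0.93). H4C8 was higher, at 3.96 ± 0.39 CPM in FL, 7.30 ± 0.41 CPM in ΔE8, 6.30 ± 0.43 CPM in siTAF5 and 2.31 ± 0.075 CPM in siNT cells (SD, n = 3 each), with FL minus siNT at 0.76 ± 0.10. Without FL replicate 3 only 1 gene of the list was higher. H2AC18 and H2AC19, H4C14 and H4C15, and H3C14 and H3C15 are near-identical pairs whose reads cannot be assigned with certainty. Most replication-dependent histone mRNAs carry no poly(A) tail, so these libraries report only on the polyadenylated ones.

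**Figure D4:**
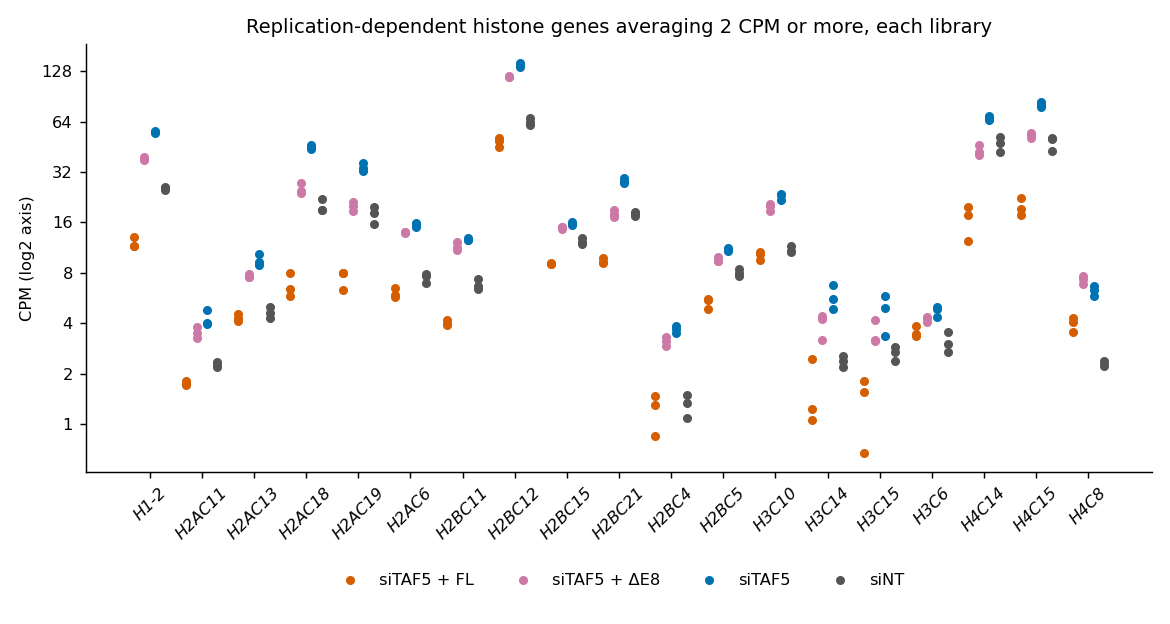
CPM on a log2 axis of the 19 replication-dependent histone genes that averaged 2 CPM or more, 1 point per library, coloured by group. For H1-2 and H2BC12 the siTAF5 points lie highest and FL points lowest, and for H4C8 the FL points lie above siNT.

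Of 11 replication-independent histone genes 4 were higher and 3 lower, with a median near 0 whose sign depended on the scaling, and 1 was lower without siNT replicate 1. Targets of p53 were divided, with 13 of 28 higher and 7 lower (median 0.02, and -0.02 under upper-quartile scaling). CDKN1A, the p21 cell cycle inhibitor, had 94.9, 90.6 and 93.6 CPM in FL libraries, against 96.3, 90.3 and 92.2 CPM in siNT libraries. The groups overlapped, and the difference was 0.00, with a 95% interval of -0.06 to 0.07 (edgeR quasi-likelihood, adjusted p = 0.938). CDKN1A averaged 123 ± 2.9 CPM in ΔE8 and 136 ± 3.2 CPM in siTAF5 cells (SD, n = 3 each). BAX, a pore-forming death effector, had 62.9, 66.1 and 67.6 CPM in FL libraries, against 42.6, 42.1 and 40.7 CPM in siNT libraries (0.65 ± 0.04), and MDM2, the p53 ubiquitin ligase, was higher too (0.38). GDF15 (-0.96), a secreted stress factor, the BH3-only gene BBC3 (-0.64) and BTG2 (-0.36) were lower.

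Genes of protein folding and turnover were mostly higher. Of 40 proteasome genes 34 were higher and 2 lower, and the median of 0.29 was the highest of the 37 lists. PSMC4 had 294, 286 and 298 CPM in FL libraries, against 198, 195 and 197 CPM in siNT libraries. The groups lay far apart relative to their spread, with a difference of 0.58 ± 0.02 (edgeR quasi-likelihood, adjusted p = 6.7e-13). PSMC1 (0.58), PSMC3 (0.57) and PSMC2 (0.51), which like PSMC4 are ATPases of the 19S cap, were higher. The 2 lower genes were the activator subunits PSME1 (-0.29) and PSME2 (-0.11), which were named after their values were seen, and 1 gene was lower without FL replicate 2, FL replicate 3 or siNT replicate 2. In siTAF5 against siNT the list had 18 higher and 7 lower (median 0.05).

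Of 25 heat shock genes 19 were higher and 2 lower (median 0.21), with 1 lower without FL replicate 1, siNT replicate 2 or siNT replicate 3. HSPA8, the constitutive HSP70, averaged 1478 ± 89.5 CPM in FL and 951 ± 25 CPM in siNT cells (SD, n = 3 each), and DNAJA1 (0.76), an HSP40, was higher with it. Unfolded protein response genes were higher at 15 of 22 and lower at 3 (median 0.20), with the ER chaperones HSPA5 at 0.32 and CALR at 0.38. The ATF4 and amino acid list had 8 of 34 higher and 20 lower (median -0.16), and 5 higher without FL replicate 2. PPP1R15A (1.29), named above, and SLC3A2 (0.60), an amino acid transporter chain, belong to this list and lay on the side opposite to most of it. The lowest member was at -0.57. Of 20 tRNA synthetase genes 12 were higher and 7 lower, with RARS1 at 0.63 and QARS1 at -0.23. Of 29 lysosome and autophagy genes 15 were higher and 9 lower, and the autophagy receptor SQSTM1 was at 0.64.

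Cell cycle genes were mostly higher by small amounts. Of 40 G1/S and replication genes 30 were higher and 5 lower (median 0.17), with CDC6, a licensing factor, at 146 ± 6.3 CPM in FL and 98.6 ± 1.4 CPM in siNT cells, and RRM2, a ribonucleotide reductase subunit, at 299.5 ± 10.4 CPM in FL and 213 ± 3.6 CPM in siNT cells (SD, n = 3 each). Of 36 mitotic genes 24 were higher and 5 lower (median 0.15). CDC20 was higher (0.33), and MAD2L1, of the spindle checkpoint, was lower (-0.37).

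MYC, the growth regulator, had 129, 129.7 and 114 CPM in FL libraries, against 257, 246 and 252 CPM in siNT libraries. Every FL library was far under the siNT range, and the difference was -1.01 ± 0.04 (edgeR quasi-likelihood, adjusted p = 4.27e-13). MYC averaged 127 ± 2.4 CPM in ΔE8 and 221 ± 10.2 CPM in siTAF5 cells (SD, n = 3 each). Of 13 genes of the MYC network 3 were higher and 8 lower (median -0.22), with MYCL (-0.66) among the lower ones. Immediate early genes, which answer fast to growth signals, were lower at 16 of 30 and higher at 9 (median -0.13). Of 17 BCL2 family genes 8 were lower and 4 higher, with the BH3-only BMF at -0.81 and the survival factor MCL1 at 0.42.

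Nuclear and mitochondrial genes of respiration lay mostly on different sides of 0. Of 75 nuclear-encoded oxidative phosphorylation genes 47 were higher and 8 lower (median 0.11), and of 73 mitochondrial ribosomal protein genes 51 were higher and 2 lower (median 0.13). Leaving out any single FL or siNT library other than FL replicate 2 left 1 mitochondrial ribosomal gene lower. NDUFB9 of complex I averaged 91.8 ± 0.78 CPM in FL and 76.1 ± 0.27 CPM in siNT cells (SD, n = 3 each). Of the 13 mitochondrially encoded genes 11 were lower and none higher (median -0.31). MT-CO1, a catalytic subunit of cytochrome oxidase, had 2516, 2594 and 2569 CPM in FL libraries, against 3418, 3198 and 3960.0 CPM in siNT libraries (-0.46 ± 0.05). The siNT libraries spread far more than the FL libraries and still lay above them. Mitochondrially encoded genes took 0.91 to 0.93% of reads in FL libraries and 1.06 to 1.29% in siNT libraries.

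Extracellular matrix genes were lower at 29 of 34 tested and higher at 1, against 26.8% lower and 27.8% higher among all tested genes. Their median of -0.50 was the lowest of the 37 lists, and 29 were lower whichever single library was left out. The basement membrane chain LAMA5 had 119, 125 and 114 CPM in FL libraries, against 196, 188 and 178 CPM in siNT libraries. The groups did not come near each other, with a difference of -0.65 ± 0.04 (edgeR quasi-likelihood, adjusted p = 3.95e-11). FN1, or fibronectin, had 93.7, 98 and 89.1 CPM in FL libraries, against 136, 135 and 132 CPM in siNT libraries (-0.52 ± 0.03). The collagen COL4A6 (-0.60) and the laminin LAMB1 (-0.51) were lower too. LAMA5 averaged 129 ± 5.9 CPM in ΔE8 and 177 ± 2.3 CPM in siTAF5 cells, and FN1 averaged 114 ± 5.0 CPM in ΔE8 and 152 ± 1.9 CPM in siTAF5 cells (SD, n = 3 each). The median of the list was -0.10 for siTAF5 minus siNT and -0.38 for ΔE8 minus siTAF5. Fibroblast markers were low and also differed. Without the scaling, the 8 markers summed to 8.70 to 10.1 CPM in FL libraries and 17 to 17.5 CPM in siNT libraries, mostly from COL1A1 and COL3A1. COL1A2 was at 0 in all 6 libraries, and DCN and THY1 had at most 1 read in any of them. Their part in the result was not tested.

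Lists tied to oxygen, sterols, cytokines and signalling were also more often lower. Of 30 glycolysis and hypoxia genes 19 were lower and 7 higher (median -0.23). NDRG1, a stress- and hypoxia-responsive gene, had 209.5, 185 and 168 CPM in FL libraries, against 370.4, 359.7 and 359 CPM in siNT libraries. NDRG1 was lower in every FL library, with a difference of -0.95 ± 0.06 (edgeR quasi-likelihood, adjusted p = 8.21e-11), and averaged 369 ± 24.6 CPM in siTAF5 cells. Of 23 cholesterol genes 12 were lower and 7 higher (median -0.10), with INSIG1, a brake on sterol synthesis, at -0.59. Of 29 interferon-stimulated genes 12 were lower and 4 higher, with BST2 and IFITM1 (-1.06) lower, and 2 were higher without FL replicate 3 or siNT replicate 2. Of 15 ID and BMP feedback genes 9 were lower and 2 higher, with ID4 (-0.56) lower and ID3 higher (0.66), and 1 was higher without FL replicate 2, FL replicate 3 or siNT replicate 3. Neuronal genes were split, with 10 of 21 higher and 8 lower, the intermediate filament genes INA at 0.70 and NEFL at -0.44. Epithelial junction genes were split as well, with 5 of 18 higher and 4 lower and a median whose sign depended on the scaling, and CDH1, or E-cadherin, was at -0.90.

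Genes with the largest differences after TAF5 loss alone stood at different distances from the siNT level in FL cells. The FL and siTAF5 comparisons use the same siNT libraries, so their values are given side by side. TLCD1 averaged 11.3 ± 0.77 CPM in FL, 26 ± 0.66 CPM in siTAF5 and 9.01 ± 1.1 CPM in siNT cells (SD, n = 3 each). ZNF425 averaged 6.88 ± 0.32 CPM in FL, 11 ± 0.67 CPM in siTAF5 and 3.24 ± 0.21 CPM in siNT cells. DHRS2 averaged 10.4 ± 0.18 CPM in FL, 13.6 ± 0.62 CPM in siTAF5 and 4.79 ± 0.031 CPM in siNT cells. TLCD1 in FL cells lay close above siNT, ZNF425 about midway and DHRS2 nearer to siTAF5. The nuclear RNA NEAT1, the scaffold of paraspeckles, averaged 56.5 ± 3.4 CPM in FL, 135 ± 6.6 CPM in siTAF5 and 49.5 ± 4.5 CPM in siNT cells. Its FL minus siNT difference of 0.19 ± 0.07 had an adjusted p of 0.0283 by edgeR. The call was lost with DESeq2 (adjusted p = 0.073), upper-quartile scaling (0.0772), library totals (0.0533), and without FL replicate 2 (0.123), FL replicate 3 (0.113) or siNT replicate 1 (0.167).

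Among genes lowered in siTAF5 cells, PCDH19, a protocadherin, averaged 21.4 ± 0.59 CPM in FL, 12.2 ± 0.68 CPM in siTAF5 and 29.1 ± 0.69 CPM in siNT cells (SD, n = 3 each). RAPGEF3, a cAMP-activated exchange factor, averaged 5.20 ± 0.45 CPM in FL, 3.16 ± 0.14 CPM in siTAF5 and 8.74 ± 0.27 CPM in siNT cells. FUT1, a fucosyltransferase, averaged 3.35 ± 0.062 CPM in FL, 2.68 ± 0.39 CPM in siTAF5 and 7.22 ± 0.82 CPM in siNT cells. PCDH19 and RAPGEF3 in FL cells lay between the levels of the other groups, and FUT1 lay nearer to siTAF5. FL minus siNT was -0.45 for PCDH19, -0.75 for RAPGEF3 and -1.10 for FUT1, all called lower.

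The series holds a second pair of groups that differ by a TAF5 transgene and share no library with FL and siNT. These are ΔE8 and siTAF5, between which 7883 genes (40.6%) were called, 20% higher and 20.6% lower in ΔE8. Of the 5392 genes higher in FL than siNT, 3289 (61.0%) were also higher in ΔE8 than siTAF5, and these were 84.6% of the genes higher in ΔE8. Of the 5209 genes lower in FL, 3298 (63.3%) were also lower in ΔE8, or 82.6% of the genes lower there. Opposite calls were made for 38 of the genes higher in FL (0.705%) and 24 of those lower (0.461%). Pearson's r between both sets of log2 differences was 0.575 over 19424 genes and 0.857 over the 12288 that averaged at least 4 CPM. These are descriptions across genes, which are not independent replicates and were read at like depth in both pairs.

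DNAH17 averaged 19.2 ± 1.1 CPM in ΔE8 and 3.89 ± 0.34 CPM in siTAF5 cells, a difference of 2.29 (SD, n = 3 each). HSPB8 averaged 8.03 ± 0.67 CPM in ΔE8 and 2.52 ± 0.30 CPM in siTAF5 cells, a difference of 1.68. PPP1R15A averaged 104 ± 1.3 CPM in ΔE8 and 46 ± 0.89 CPM in siTAF5 cells. These 3 genes were thus high beside their controls in both transgene groups. ANKRD1 averaged 6.45 ± 0.81 CPM in ΔE8 and 0.564 ± 0.059 CPM in siTAF5 cells (3.50), and ICAM5 averaged 12.6 ± 0.48 CPM in ΔE8 and 28.2 ± 2.1 CPM in siTAF5 cells (-1.16). For these 5 genes siTAF5 minus siNT was -0.54 for DNAH17, -0.28 for HSPB8, 0.18 for PPP1R15A, -0.05 for ANKRD1 and -0.39 for ICAM5. SNHG3, called in FL against siNT, did not pass the test in ΔE8 against siTAF5 (-0.09). Doxycycline, line and transgene cannot be told apart in either pair. FL and siNT cells also differ in siRNA, while ΔE8 and siTAF5 cells share the TAF5 siRNA.

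**Figure D5:**
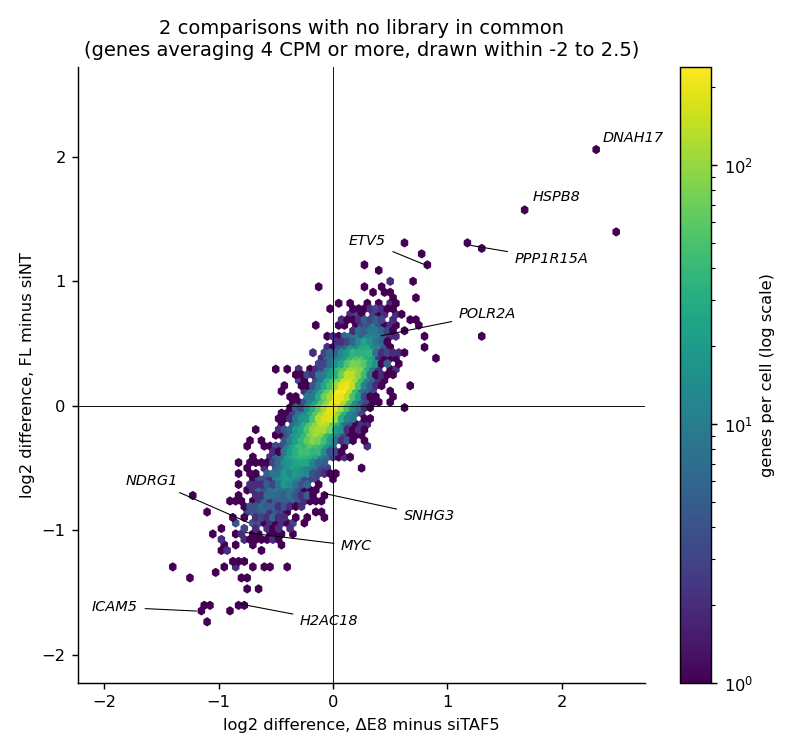
Log2 differences ΔE8 minus siTAF5 (x axis) and FL minus siNT (y axis) for genes averaging at least 4 CPM, coloured by the number of genes in each cell; values outside -2 to 2.5 are drawn at that edge. The cloud runs from lower left to upper right, with DNAH17 at its upper end, ICAM5 at its lower end, and SNHG3 near 0 on the x axis.

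Differences were spread over the genome, with local exceptions. Median differences of single chromosomes lay between -0.04 and 0.04. In windows of 50 neighbouring tested genes the 1st and 99th percentiles of the median were -0.18 and 0.17. The highest window was at chr19:57350848-58327252, where 29 genes were higher and 2 lower (median 0.34), and the zinc finger genes ZNF671, ZNF587B and ZNF551 had its largest called differences. Another window of that chromosome, chr19:51414298-53430413, had 26 higher and 2 lower (median 0.27). The window over the protocadherin clusters at chr5:139475533-141512975 had 19 higher and 6 lower (median 0.29), and since gamma protocadherins share exons their single values are uncertain. The lowest window was chr19:48296457-49486231, with 7 higher, 28 lower and a median of -0.35, although it holds PPP1R15A. It was followed by chr19:17292131-18791305 (median -0.31), which holds BST2 and JAK3, and chr6:32517353-34246231 (median -0.23), which holds HLA-DQA1.

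Calls differed by gene class, level and length. Of 14637 coding genes 32.9% were higher and 31.8% lower, and of 3306 lncRNA genes 13.1% were higher and 13.2% lower, with a median SE of 0.04 in coding and 0.26 in lncRNA genes. Among coding genes in 4 equal bins of genomic span, the longest bin, from 83.5 kb, had 26.1% higher and 39.4% lower (median -0.06). The shortest bin had 32.9% higher and 28.9% lower (median 0.02). In 4 equal bins of level, the lowest had 8.59% higher and 11.1% lower, and the highest 47.4% higher and 27.8% lower.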

How the data were processed

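Polyadenylated RNA of 12 libraries was sequenced, per the labels' protocols. The submitters' processing notes list, with no roles, STAR 2.7.0f and cutadapt 1.18, the Partek suite 10.0.23.0531, DESeq2 and the build hg38. How reads were assigned to genes, and whether by strand, is not given in the sources, so a gene and its antisense partner may share reads. The authors deposited estimated counts per gene, not normalized: 46.5% of entries were not whole. The plan assumed whole counts, so the estimates were rounded, moving library totals by at most 91.27. Of 32010 genes 8010 had no name and 247 were at 0 in every library. Gene classes and coordinates were those of the deposited table. Of its gene IDs 30464 (95.2%) were found in a reference annotation, and 69.9% of these had the same start there.

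Groups came from the sample titles. Tools were edgeR 4.0.16, limma 3.58.1 and DESeq2 1.42.0 in R 4.3.3. The low-count filter was filterByExpr (minimum 10), scaling was TMM, and 1 quasi-likelihood model with a mean per group held all 12 libraries. Tests were two-sided with Benjamini-Hochberg adjustment over 19424 genes and a threshold of 0.05. Replicate pairs differed by chi-square values of 2.57 to 5.00 for each degree of freedom, above counting error, so none was a duplicate. The SE is the difference divided by the square root of F. The steps were tested on simulated data.

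The comparison, its 37 gene lists and all rules were chosen with earlier results of these data known. Of 1134 list genes 1128 were found. The rule named TAF5, the 12 largest called differences each way (mean log2 CPM of 2 or more, no overlap of libraries), 6 each way in siTAF5 against siNT, up to 4 members per list with the smallest adjusted p, and all members of the TFIID, SAGA, polymerase II, general factor, replication-dependent histone and p53 lists. Lists are described by counts and medians. Promoters came from RefSeq by symbol. Alternatives covered scaling, filter, tool, samples fitted, a replicate block, a minimum fold and leaving out each library.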

Additional observations from a re-analysis of the deposited data

How the results depend on the processing

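No called gene among those named changed direction under the alternatives run. Which side held more calls did depend on the setting, the sides being near equal. In FL against siNT higher genes were the more numerous (5392 against 5209 lower), but lower ones were under upper-quartile scaling (4675 higher, 5864 lower), library totals (5054, 5502), no filter (4749, 5544), a filter of 1 CPM in 3 libraries (4865, 5139), the fit of 6 libraries (5035, 5307) and without FL replicate 2 (4776, 5124). In siTAF5 against siNT lower genes were the more numerous (4802 higher, 4847 lower), but higher ones were under library totals (5662, 4139). In ΔE8 against siTAF5 lower genes were the more numerous (3890 higher, 3993 lower), but higher ones were with DESeq2 size factors (4017, 3891), DESeq2 (3682, 3429), 1 CPM in 3 libraries (3954, 3821), the fit of 6 libraries (4137, 3870) and each library left out (3640 to 3781 higher, 3243 to 3413 lower). The minimum fold turned the order in the first and second comparison. Against a minimum fold of 1.2 (glmTreat) the counts of called genes fell to 3215 in FL against siNT (1314 higher, 1901 lower), to 2566 in siTAF5 against siNT (1288 higher, 1278 lower) and to 985 in ΔE8 against siTAF5 (280 higher, 705 lower), since that test asks for a larger difference. All other settings kept these 9 counts within 1.5 times. Leaving out 1 library at a time left 9703 to 9969 genes called in FL against siNT, 8651 to 9018 in siTAF5 against siNT and 6883 to 7194 in ΔE8 against siTAF5, with TAF5 at 1.38 to 1.41. Genes higher made up 50.9% of the calls in FL against siNT, 44.4% under upper-quartile scaling, which moved the median of all genes by -0.03. Same-numbered FL and siNT libraries had deviations correlated at r of 0.171, -0.042 and 0.181, so the numbers were not taken as pairs; with a replicate block 10686 genes were called (5429 higher, 5257 lower), and of 284 named genes 282 kept their call and 2 gained one. Upper-quartile scaling moved the calls of 17 of the named genes and the minimum fold those of 75. The signs of the medians of the p53, replication-independent histone and epithelial lists depended on the scaling. With 3 libraries a group and a median SE of 0.06 on the log2 scale, small differences among lowly expressed genes were not detectable at this depth.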
